A study of Mus musculus with 2 samples.

Results

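The let-7 family of microRNAs was examined by small RNA sequencing of total RNA from J1, an established embryonic stem cell line of the mouse strain 129S4/SvJae. The members were all Mirlet7 hairpin genes and Mir98, 12 of the 1174 Mir hairpin genes of the reference, with 9 mature names. The cells of both groups were adapted to gelatin and grown with LIF at 1000 U/mL. For 6 h they received 1 µM SC1 (also called pluripotin, known as an inhibitor of ERK1 and RasGAP that helps self-renewal) or an equal volume of DMSO. Each group had 1 library of 1 line, and the replicate error of each value is therefore unknown. The 95% intervals given are binomial (Clopper-Pearson, exact); they cover counting error only, since reads are not independent molecules.

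let-7 miRNAs are cut from a hairpin first by Drosha and then by Dicer, and the strand from the 5′ side (5p) is the one usually loaded into Argonaute. They favour differentiation, and in pluripotent cells their maturation is known to be held back by LIN28, which binds the loop of the precursor and recruits the terminal uridylyltransferases TUT4 and TUT7. The uridines added there sit at the 3′ end of the precursor, and so on the 3p arm. Mature miRNAs can also gain uridine or adenosine at their own 3′ end, for example from TUT enzymes or from GLD2.

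The deposited SC1 list held 1275599 reads in tags of 3 to 17 nt, and the DMSO list 18870345 reads in tags of 18 to 44 nt. No let-7 level can therefore be compared between SC1 and DMSO, and the members are described in the DMSO library. Of its 16614432 reads of 18 to 26 nt, 2409009 matched a Mir hairpin exactly, or did so after removal of 1 to 3 untemplated 3′ A or T. The label of the cells was checked against miRNAs of the miR-290 to miR-295 cluster, which is known from mouse embryonic stem cells. All 6 listed names had reads and together took 27.3% of the hairpin reads, against 0.0127% for the 5 names listed for miR-302 and miR-367, 0.141% for the fibroblast list and 0.38% for the neural list. These totals rest unevenly on single names. The highest neural name had 8742 of 9164 reads. The highest fibroblast name had 2291 of 3396 reads, and 3 of the 4 fibroblast names had reads. The lowest of the 6 stem cell names had 42939 reads.

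The 5p sequences are shown because every member is recognised by them and because their 3′ ends decide which tails can be seen. They are RefSeq mature sequences on GRCm38.p6, 5′ to 3′, with the seed (bases 2 to 8) in capitals. There was 1 distinct seed over the 9 members.
let-7a-5p: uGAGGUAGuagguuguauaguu
let-7b-5p: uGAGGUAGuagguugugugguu
let-7c-5p: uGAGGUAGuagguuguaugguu
let-7d-5p: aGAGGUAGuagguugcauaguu
let-7e-5p: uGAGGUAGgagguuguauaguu
let-7f-5p: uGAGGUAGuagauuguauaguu
let-7g-5p: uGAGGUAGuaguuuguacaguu
let-7i-5p: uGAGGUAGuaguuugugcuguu
miR-98-5p: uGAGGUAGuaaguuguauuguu

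In the DMSO library 197691 reads in 290 distinct tags came from let-7 hairpins. That was 8.21% of the hairpin reads (interval 8.17 to 8.24) and 1.05% of all reads of the list. Of these, 79 reads fitted more than 1 member and were split equally, and 0 fitted another miRNA hairpin. In bulk RNA, fewer cells with a miRNA and less of it per cell cannot be told apart.

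Levels spread over 3 orders of magnitude among members with the same seed. They are given in RPM, reads of an arm in each 1000000 hairpin reads. let-7c-5p led with 63824.5 reads after splitting, 26494 RPM (interval 26291 to 26698), and was in place 8 among 1077 miRNA arms with reads. let-7f-5p followed with 54625 reads, 22675 RPM (interval 22488 to 22864). let-7a-5p had 35489.5 reads, 14732 RPM (interval 14580 to 14885). These 3 members held 77.9% of the let-7 reads, and with let-7e-5p and let-7g-5p 97.0%.

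let-7e-5p had 21016 reads, 8724 RPM (interval 8607 to 8842). let-7g-5p had 16761 reads, 6958 RPM (interval 6853 to 7063). The remaining members were much lower: let-7d-5p had 2909 reads (1208 RPM), let-7b-5p 2026 reads (841 RPM) and let-7i-5p 968 reads (402 RPM). miR-98-5p, which carries the let-7 seed under another name, had 47 reads, 19.5 RPM (interval 14.3 to 25.9). The intervals of neighbours in this order did not overlap, but replicate error is unknown. Mir7j and Mir7k, whose RefSeq products are called let-7j and let-7k, had 0 reads of their own each.

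**Figure D1:**
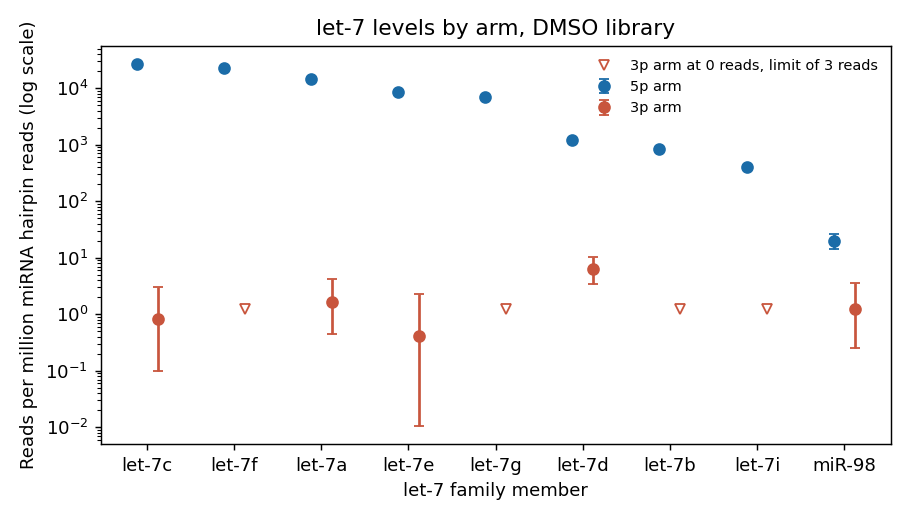
Level in RPM (log axis) of the 5p and 3p arm of each let-7 member in the DMSO library, with exact 95% counting intervals; open triangles mark the limit of 3 reads for arms with 0 reads. The 5p arms fall over 3 orders of magnitude, from 26494 RPM for let-7c to 19.5 RPM for miR-98, while each 3p arm lies below its 5p arm and the highest, let-7d-3p, has 15 reads.

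Almost all let-7 reads came from the 5p arm. The family had 197666 reads of the 5p arm and 25 of the 3p arm, a ratio of 7907 (interval 5356 to 12218). The 3p arm with the most reads was let-7d-3p (RefSeq, seed in capitals), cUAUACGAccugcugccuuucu, with 15 reads and a ratio of 5p to 3p reads of 194 (interval 117 to 347). After splitting, let-7a had 4 reads of its 3p arm, miR-98 had 3, let-7c had 2 and let-7e had 1. The mature 3p sequences of Mirlet7a-1 and Mirlet7c-2 are identical. No 3p read fitted only a let-7c gene, so the 2 reads of let-7c are shares of reads that fit let-7a equally. The 3p arms of let-7b, let-7f, let-7g and let-7i had 0 reads, for which a limit of 3 reads, 1.25 RPM, was set.

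The ratio of 5p to 3p reads was lowest for miR-98, at 15.7 (interval 5.04 to 78.7). It was 31912 for let-7c (interval 8834 to 263513), on a 3p arm of 2 reads that are only shares split with let-7a. The ratio for let-7e was 21016 (interval 3772 to 830127), on 1 read. For let-7f the 5p arm was at least 18208-fold higher, against the limit of 3 counts in the library. Of 121 other miRNA names with at least 1000 reads, the median ratio of the larger to the smaller arm was 51.5, with an arm under 3 reads set to 3. In this set 5 names were at or above the ratio of the let-7 family. That ratio sums 9 members, and with the limit of 3 reads a name with few reads cannot reach it. The median and the count are therefore limited by depth and do not show how unusual the let-7 ratio is.

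The 12 genes lie at 8 places of the genome. Coordinates are those of GRCm38, from GENCODE M21, and hosts are genes on the same strand. Mirlet7a-1 (chr13:48538179-48538272), Mirlet7f-1 (chr13:48537829-48537917) and Mirlet7d (chr13:48536012-48536114) lie on the minus strand in exons of the lincRNA gene 6720427I07Rik. The gap between the first pair is 262 bp, and Mirlet7d follows after 1715 bp. Mirlet7c-2 (chr15:85706603-85706697) and Mirlet7b (chr15:85707319-85707403) lie 622 bp apart in exons of Lncppara, a non-coding transcript. Mirlet7f-2 (chrX:151912346-151912428) and Mir98 (chrX:151913214-151913321) lie 786 bp apart in an intron of Huwe1, a ubiquitin ligase gene.

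The other genes have no second let-7 gene beside them. Mirlet7e (chr17:17830352-17830444) lies in an intron of Spaca6, 95 bp from Mir99b. Mirlet7g (chr9:106178840-106178927) lies in an intron of Wdr82, and Mirlet7i (chr10:122985640-122985724) in an exon of the annotated pseudogene D630033A02Rik. Mirlet7c-1 (chr16:77599657-77599750) lies in an intron of Mir99ahg, 657 bp from Mir99a. Mirlet7a-2 (chr9:41536716-41536811) lies in introns of 3110039I08Rik and Gm49317, 5212 bp from Mir100.

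The miRNAs encoded beside let-7 genes were at very unequal levels. Next to Mirlet7e, miR-99b-5p had 7379 reads (3063 RPM) and miR-125a-5p 801 reads (333 RPM). Next to Mirlet7c-1, miR-99a-5p had 4 reads, and next to Mirlet7a-2, miR-100-5p had 8 reads. miR-125b-5p, which Mir125b-1 and Mir125b-2 of those same regions share, had 113 reads. Most let-7a, let-7c and let-7f reads fit both of their gene copies, so their split between loci is unknown.

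Few reads fitted only a particular copy. Mirlet7f-2 alone was fitted by 935 reads and Mirlet7f-1 alone by 274. Mirlet7c-2 alone was fitted by 133 reads and Mirlet7c-1 alone by 44. Mirlet7a-1 alone was fitted by 124 reads and Mirlet7a-2 alone by 13. Most of these reads were told apart at their 3′ end, where an added tail can imitate the hairpin, so the counts do not give the share of each copy. Reads told apart by a start upstream of the main one numbered 60 for Mirlet7f-2, 11 for Mirlet7c-1, 7 for Mirlet7a-1 and 3 for Mirlet7a-2, and 2 reads of Mirlet7a-1 were of its 3p arm.

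The 5′ end was nearly fixed. Of the family's 5p reads 99.1% began at the main start of the arm. The exception in size was let-7c-5p, of which 1442 reads (2.26%) began 1 nt downstream, 1298 of them as the tag gaggtagtaggttgtatggtt. A start shifted by 1 nt also shifts the seed. let-7d-5p had 32 reads (1.10%) that began 1 nt upstream.

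The 3′ end varied more, and differed between members. In the family 86.0% of 5p reads were 22 nt long, 3.89% were 21 nt and 8.30% were 23 nt. let-7g-5p (92.4% at 22 nt) and let-7f-5p (91.4%) were the most uniform. let-7e-5p had 71.8% at 22 nt and 20.8% at 23 nt, and let-7b-5p had 61.7% at 22 nt and 19.1% at 23 nt.

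let-7i-5p was the member with the largest share of short reads. Of its reads 39.9% were 22 nt long and 37.5% were 18 to 20 nt, against 1.02% of all let-7 5p reads. Of these short reads 223 were the tag tgaggtagtagtttgtgct of 19 nt, beside 385 of the full tgaggtagtagtttgtgctgtt. let-7b-5p had 8.34% of its reads at 18 to 20 nt and let-7g-5p 0.0955%.

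**Figure D2:**
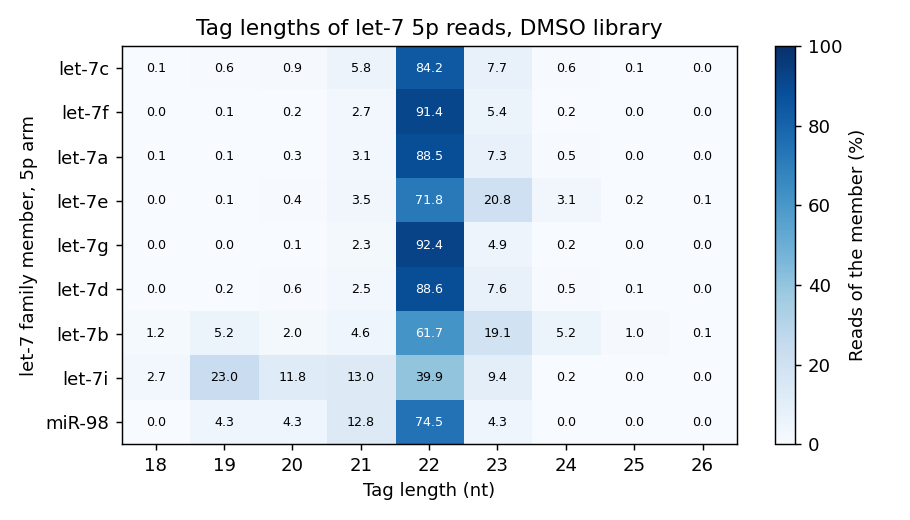
Share of each member's 5p reads (%, colour and number) at each tag length (nt), DMSO library. let-7g and let-7f are almost all 22 nt, let-7e and let-7b extend to 23 nt in 20.8% and 19.1% of reads, and let-7i has 37.5% at 18 to 20 nt.

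A tail is visible only where the added base differs from the hairpin. The hairpins are those of the reference, and the genome of the J1 line was not examined. A base in which the line differs from the reference would count as untemplated. A uridine behind a 22 nt mature sequence is hidden in the 8 genes whose hairpin continues with U and visible in the 4 that continue with G. The starts of 4 hairpins are shown to make this plain, from RefSeq on GRCm38.p6, with the mature 5p in lower case and the next bases of the hairpin in capitals. The first pair continue with G, and the second pair with U.
Mirlet7e (chr17:17830366-17830393, plus strand): ugagguaggagguuguauaguuGAGGAA
Mirlet7i (chr10:122985692-122985719, minus strand): ugagguaguaguuugugcuguuGGUCGG
Mirlet7g (chr9:106178846-106178873, plus strand): ugagguaguaguuuguacaguuUGAGGG
Mirlet7b (chr15:85707325-85707352, plus strand): ugagguaguagguugugugguuUCAGGG
Mir98 and Mirlet7f-1 also continue with G, but a uridine on let-7f is hidden by its other copy, Mirlet7f-2.

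Untemplated tails of 1 to 3 nt were found on 5.22% of the let-7 5p reads. Adenosine tails took 3.90% (7716 reads, interval 3.82 to 3.99), uridine tails 1.15% (2265 reads, interval 1.10 to 1.19) and mixed tails of both 0.175%. Tails with C or G were found on 437 further reads, which are not counted among the let-7 5p reads. They made 0.221% of the total with these reads added. The commonest tail was a single A with 7212 reads, followed by a single U with 1992, AA with 480, AU with 272 and UU with 174. These tails sat on the mature end: 95.6% of adenosine tails and 77.3% of uridine tails followed an exact part of 22 nt, and 15.0% of uridine tails one of 23 nt.

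Of the 2265 reads with a uridine tail, most were let-7e. let-7e-5p had 1999 of them, 9.51% of its reads (interval 9.12 to 9.92). let-7i-5p had 67, or 6.92% (interval 5.40 to 8.71), and miR-98-5p had 2 of 47 reads (4.26%, interval 0.52 to 14.5). These are the members whose hairpins all continue with G.

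Where the hairpin continues with U, few uridine tails could be seen. let-7b-5p had 38 reads (1.88%), let-7a-5p 38.5 (0.108%), let-7c-5p 64.5 (0.101%), let-7f-5p 45 (0.0824%) and let-7g-5p 11 (0.0656%). let-7d-5p had 0 of 2909 reads (interval 0 to 0.127%). These low shares depend on the settings: with tails of 1 nt only they were 0.0255% for let-7a, 0.0331% for let-7c and 0% for let-7f, and with tags of at least 10 reads 0.0748% for let-7a and 0% for let-7g. In the family 142 uridine-tailed reads had an exact part of only 18 to 20 nt, such as the let-7f tag tgaggtagtagattgtataTTT (tail in capitals) with 28 reads. That tag has the length of the mature sequence and cannot be told apart from it with a substituted base.

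Tails of let-7e are shown as its tags, with their untemplated part in capitals. The full tag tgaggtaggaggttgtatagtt had 15050 reads. With a uridine added, tgaggtaggaggttgtatagttT had 1558 reads, and with an adenosine, tgaggtaggaggttgtatagttA had 869. The hairpin's own next base gave tgaggtaggaggttgtatagttg, with 1919 reads, and a uridine behind that gave tgaggtaggaggttgtatagttgT, with 288. The tag with the added uridine was less frequent than the templated extension and more frequent than the tag with the added adenosine. Substituted bases inside the first 20 nt of the full tag were rarer: the most frequent of the 59 single substitutions there that give no other let-7 member had 24 reads.

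**Figure D3:**
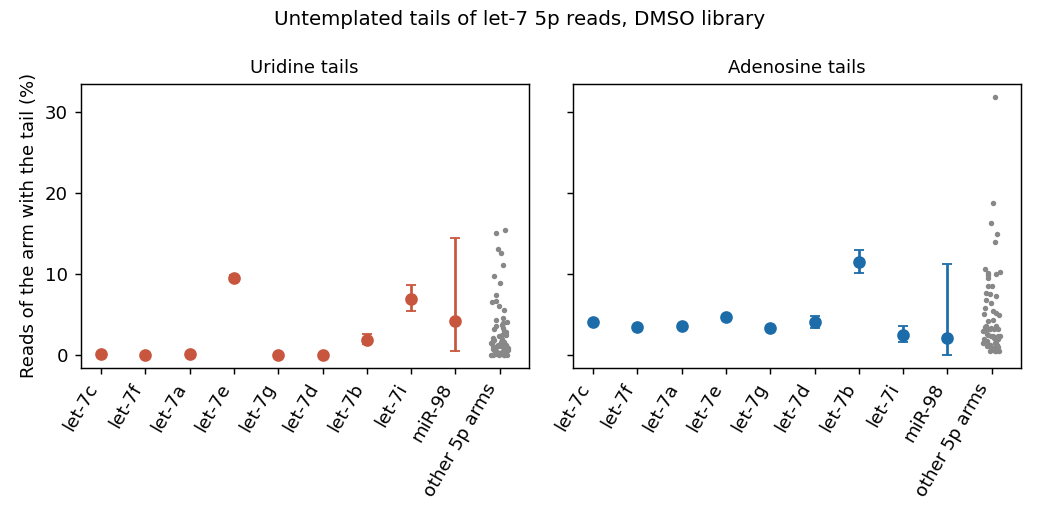
Share of 5p reads (%) with an untemplated uridine tail (left) or adenosine tail (right) of 1 to 3 nt for each let-7 member, with exact 95% counting intervals, and for 63 other 5p arms with at least 1000 reads each (grey, 1 point per arm). Uridine tails stand at 9.51% for let-7e and 6.92% for let-7i and below 2% for the members whose hairpin continues with U; adenosine tails stand at 11.5% for let-7b and between 2.13% and 4.69% for the others.

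Adenosine tails were at similar shares over the family, apart from let-7b. let-7b-5p had 233 reads with an adenosine tail, 11.5% of its reads (interval 10.1 to 13.0). let-7e-5p had 986 reads (4.69%), let-7d-5p 119 (4.09%), let-7c-5p 2583.5 (4.05%) and let-7a-5p 1290.5 (3.64%). let-7f-5p had 1916 reads (3.51%) and let-7g-5p 563 (3.36%). let-7i-5p had 24 reads (2.48%, interval 1.59 to 3.67) and miR-98-5p 1 read.

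The base at position 23 was also read directly, templated or not. It was taken from all tags of up to 26 nt that began with the 22 nt mature sequence, 187565 reads in all. Adenosine stood there in 7673 reads (4.09%) and cytidine in 38 (0.0203%), and none of the 12 hairpins holds either base there. For let-7e uridine stood there in 1714 of 20130 reads, 8.51% (interval 8.13 to 8.91), against 11.4% for the templated G. For let-7i uridine stood there in 64 of 474 reads, 13.5% (interval 10.6 to 16.9), against 3 reads (0.633%) for the templated G.

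Among members with U in the hairpin, the share of uridine at position 23 sums templated and added bases and so sets an upper limit on added uridine. It was 1.46% for let-7g, 1.65% for let-7f, 3.66% for let-7d, 4.43% for let-7a and 4.80% for let-7c. Each lay below the untemplated share of let-7e, with intervals that did not overlap it. let-7b was the exception, with uridine in 14.7% (interval 13.1 to 16.5) and adenosine in 14.1% (interval 12.5 to 15.8) of 1758 reads.

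**Figure D4:**
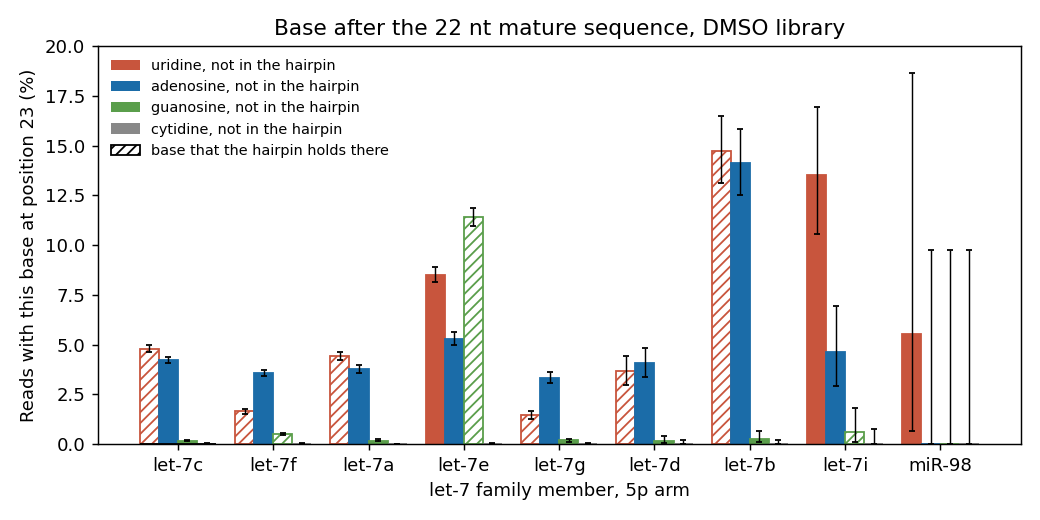
Share of reads (%) with each base at position 23, among DMSO reads that begin with the 22 nt mature 5p sequence of a member; hatched bars are bases that a hairpin of that member holds there, error bars are exact 95% counting intervals. Untemplated uridine stands out for let-7e (8.51%) and let-7i (13.5%), adenosine is between 3.33% and 5.30% for members other than let-7b (14.1%) and miR-98 (0 of 36 reads), and cytidine is close to 0.

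The 3p arms, where tails of the precursor would appear, held too few reads to show them. Of 25 reads of let-7 3p arms 0 had a uridine tail (interval 0 to 13.7%), and 2 had an adenosine tail, both on let-7d-3p. Precursors are known from mammalian cells to fall into group I, with a longer 3′ overhang, and group II, whose shorter overhang is extended by 1 uridine before Dicer. The groups cannot be compared on the 5p arms, since a uridine added to the precursor sits on the 3p arm. The hairpin also hides a uridine on the 5p end in the group I member let-7c and in most group II members. The genes of let-7a fall in both groups. Uridine tails of the 5p end, which are not tails of the precursor, were on 9.51% of let-7e reads (group I). They were on 6.92% of let-7i reads (group II), and these are the better counted members in which such tails can be seen. The motif GGAG, known to be bound by LIN28 in the loop, was found on the RNA strand of 9 of the 12 let-7 hairpins (75%) and of 484 of the 1162 other hairpins (41.7%), counted anywhere in the hairpin. In all 9 let-7 hairpins a copy lay between the mature arms, a stretch not examined in the other hairpins. The mature let-7e-5p sequence holds a further copy. Mirlet7b, Mirlet7c-2 and Mir98 do not hold these letters.

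Set beside other miRNAs, the family as a whole was not extreme in its visible tails. Its uridine share came mostly from let-7e (1999 of 2265 reads), and the cause of this was not tested. An added uridine is hidden in most members. The same holds for other arms whose hairpin continues with U, so the uridine shares do not compare all added uridine. Over 63 other 5p arms with at least 1000 reads, the median share with a uridine tail was 1.46% and with an adenosine tail 3.28%. Of these, 6 lay above let-7e in uridine tails, 8 above let-7i and 5 above let-7b in adenosine tails. At the base behind the most abundant tag, 41 other 5p arms without U in the hairpin had a median uridine share of 2.45% (quartiles 0.55 and 5.39), with 6 above let-7e and 3 above let-7i.

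Adenosine at that position had a median of 3.08% over the 60 other 5p arms without A in the hairpin there, with 1 above let-7b. The highest uridine tail shares of other arms were those of miR-345-3p (68.6%), miR-760-3p (61.9%) and miR-341-3p (55.4%). The highest adenosine tail shares were those of miR-298-5p (32.0%), miR-151-3p (19.6%) and miR-183-5p (18.7%). The arms nearest to the summed let-7 5p reads, by Euclidean distance over the shares of untailed, uridine-tailed, adenosine-tailed and mixed reads, were miR-423-5p (0.744% uridine, 3.60% adenosine), miR-93-5p (1.88% and 3.62%) and miR-295-5p (1.20% and 3.19%). This likeness was measured in 1 library.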

How the data were processed

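The authors deposited, per library, distinct tags with their raw read counts, which are not normalized; the last DMSO line, a total, was left out. RNA was extracted with TRIZOL and sequenced after standard Illumina preparation, per the labels' protocols. The submitters' processing notes name mm9. Adapter, trimming, length filter and aligner: not given in the sources used here. Tags of 18 to 26 nt were matched in sense to the 1174 Mir hairpins of GENCODE M21 (GRCm38, not mm9). The longest exact 5′ part, of at least 15 nt, took the tag if at most 3 nt of A or T remained; arms were called by the hairpin midpoint, and the reads of a tag that fitted several names were shared out equally. T in a tag is given as U in a tail. The matching was tested on simulated reads with known tails. Tails hidden by the hairpin were left out of that test, and tail shares had to be recovered only to within 3 percentage points. It therefore does not check the low tail shares. With 1 library per group no test was run. The rule for named miRNAs took all members, partners sharing a transcript, and the 3 other arms with most uridine tails, most adenosine tails and nearest tail shares; members and lists were chosen with earlier results of these data known. Alternatives are given below. The software was Python 3.11.15 with scipy 1.17.1 and numpy 2.4.6, and matplotlib 3.10.9 for the figures.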

Additional observations from a re-analysis of the deposited data

Results flagged for a closer look

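Short let-7 reads appeared in the SC1 list, which the description of levels does not use. Tags of 15 to 17 nt with the start of a let-7 5p arm had 9 reads in 5 tags, 0.000853% of the 1054495 SC1 reads of these lengths (exact interval 0.00039 to 0.00162). let-7f had 4 of them, let-7i 3 and let-7g 1, and 1 read of 15 nt fitted let-7a, let-7b and let-7c. The DMSO list holds no tags of these lengths, so these counts cannot be set against the DMSO levels.

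Long let-7 reads appeared outside the 18 to 26 nt window of the DMSO list. Tags of 27 or 28 nt inside a let-7 hairpin had 10 reads in 5 tags. The list reaches 44 nt, and no longer tag lay inside a let-7 hairpin.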

How the results depend on the processing

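No paired analysis was possible because SC1 and DMSO had 1 library each. For each change below the cause was not tested, unless the setting itself gives it. With tails of 1 nt only, longer tails are dropped: the family's share of hairpin reads (8.21%) was 8.35%, its 5p uridine tail share (1.15%) 1.01% and its adenosine tail share (3.90%) 3.67%. By distinct tags, which weigh rare tags like abundant ones, these were 2.16%, 15.5% and 25.5%, and the ratio of 5p to 3p (7907) was 23.2. Without shared tags the family share was 8.32%, and 8.27% at 10 reads or more per tag. The ratio was 17929 with tags of at least 10 reads, which leaves few 3p reads. The other values of these results, under at least 2 reads per tag, an exact part of at least 18 nt, a start within 2 nt of the main start, or without tailed tags that match another transcript, stayed within their counting intervals. Of 108 values for single members 15 moved beyond theirs: the levels of let-7a, let-7c, let-7e and let-7f without shared tags, uridine shares of the same members and adenosine shares of let-7b, let-7c and let-7e with 1 nt tails, and, with tags of at least 10 reads, uridine shares of let-7a, let-7g and miR-98 and the adenosine share of miR-98. The order of the 5p levels was the same under the 4 settings in which it was computed. Depth limits the 3p arms (25 reads) and miR-98 (50 reads).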
